A study of Mus musculus with 23 samples.

Results

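The genes described here encode 10 secreted Wnt antagonists: the secreted frizzled-related proteins Sfrp1, Sfrp2, Sfrp4 and Sfrp5, their relative Frzb, the Dickkopf proteins Dkk2 and Dkk3, and Wif1, Sostdc1 and Notum. They were taken by name, through their Ensembl gene identifiers, from the 54347 genes of the deposited table. All 10 passed the filter on low counts, which kept 17190 genes over the 4 groups. Expression was measured by RNA sequencing of cells from the labial cervical loop, the fold of epithelium at the base of the growing lower incisor, taken from mice of the Sox2-GFP line at postnatal day 2. In that line green fluorescent protein is made under the Sox2 gene's own promoter, and cells were sorted on it after digestion with collagenase and neutral protease, so the reporter reads promoter activity and the sort is on fluorescence. Each of 2 batches gave Sox2-negative and Sox2-positive libraries, which numbered 6 and 6 for batch A, then 4 and 7 for batch B. All 4 groups shared the reporter, the age, the tissue and the Smart-seq2 and Tn5 library chemistry, and no drug or gene deletion is given. Each batch was 1 day with its own mice, so day and mice cannot be told apart between batches. Whether the libraries of 1 group came from separate mice is not given, so the p-values measure the spread between these libraries, which may be technical.

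Wnt proteins are lipid-modified signals that bind Frizzled receptors together with the co-receptors Lrp5 and Lrp6, which stabilises beta-catenin and turns on target genes. Secreted antagonists act before that step. The frizzled-related proteins, Frzb and Wif1 bind the Wnt protein itself, Dkk2 and Sostdc1 bind the co-receptors, and Notum is an enzyme that removes the lipid from Wnt. Dkk3 is a divergent Dickkopf protein whose part in Wnt signalling is less clear. In developing teeth Wnt signals pass between the epithelium and the mesenchyme, and Sostdc1, which also binds bone morphogenetic proteins, is known for limiting tooth number.

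The sort and the cell types were checked first. Levels are in CPM, a gene's count after each library's total is adjusted by edgeR's TMM scaling and all are set equal. Sox2 held between 2.55 and 12.9 CPM in batch A Sox2-positive libraries and between 13.3 and 20.4 CPM in those of batch B. It had 0 counts in 5 of 6 and 3 of 4 Sox2-negative libraries. Library totals ran from 2.31 to 9.54 M estimated counts (megacounts), so 3 counts, taken as the smallest level shown, stood for 0.357 to 1.30 CPM. The 10 epithelial markers summed to 3971 ± 131 CPM (SD, n = 6) and 5399 ± 893.6 CPM (n = 7) in Sox2-positive libraries of batches A and B, against 214 ± 38.3 CPM (n = 6) and 392 ± 24.5 CPM (n = 4) in Sox2-negative ones. The Sox2-negative libraries held markers of several cell types: 12 mesenchymal markers summed to 13157 ± 666 CPM (n = 6) and 13298 ± 1569 CPM (n = 4). Markers of leukocytes, endothelium, erythroid cells, odontoblasts and bone, and perivascular and smooth muscle cells were also present. Ameloblast markers, enamel matrix genes of the maturing epithelium, summed to 866.6 ± 71.3 CPM (n = 6) and 655.99 ± 61.8 CPM (n = 4) there. In Sox2-positive libraries they were lower, at 324 ± 22.9 CPM (n = 6) and 8.48 ± 1.27 CPM (n = 7). Glial and neural crest markers lay on the Sox2-positive side, at 1008 ± 106 CPM (n = 6) and 70.6 ± 13.4 CPM (n = 7). In Sox2-negative libraries they summed to 7.30 ± 5.57 CPM (n = 6) and 10.8 ± 3.52 CPM (n = 4). A Sox2-negative level of an antagonist is therefore an average over a mixture, and a Sox2-positive level may be one too. In such bulk samples fewer cells of a type and less RNA per cell cannot be told apart.

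The promoters of Sfrp5, Sfrp2 and Dkk2 are shown because the first gene was high in Sox2-positive cells and the other two in Sox2-negative cells. RefSeq promoter windows on GRCm38.p6 matched 5 of the 10 genes, and the 250 bases before the annotated start are printed for these 3, whose windows hold no annotated exon. They lie at chr19:42202253-42202502 (minus strand, Sfrp5), chr3:83766071-83766320 (plus strand, Sfrp2) and chr3:132085042-132085291 (plus strand, Dkk2). Capitals mark matches to the TATA word TATAAA and to either SOX word, which is ACAATG or its variant form ACAAAG, read on both strands. None of the 3 windows held on either strand the TCF/LEF word CTTTGAA, where the last pair of bases may also be AT, TA or TT, a word that 14.8% of all 32851 windows of that length held. A SOX word stood in 25.2% and the TATA word in 12.4% of windows. The second SOX word, read on the other strand as CTTTGT, overlaps the TCF/LEF words that end in TA and TT. Dkk2 held 1 match of each of the first 2 kinds, and Sfrp5 and Sfrp2 held neither. Their G and C content was 59.6%, 63.6% and 55.6% in the order printed, against a median of 52.4% over all windows.
Sfrp5: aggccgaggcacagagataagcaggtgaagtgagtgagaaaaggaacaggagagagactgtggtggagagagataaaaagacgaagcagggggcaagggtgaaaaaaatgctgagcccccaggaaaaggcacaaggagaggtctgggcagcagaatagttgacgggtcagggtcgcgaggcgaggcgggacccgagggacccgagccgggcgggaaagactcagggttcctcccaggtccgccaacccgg
Sfrp2: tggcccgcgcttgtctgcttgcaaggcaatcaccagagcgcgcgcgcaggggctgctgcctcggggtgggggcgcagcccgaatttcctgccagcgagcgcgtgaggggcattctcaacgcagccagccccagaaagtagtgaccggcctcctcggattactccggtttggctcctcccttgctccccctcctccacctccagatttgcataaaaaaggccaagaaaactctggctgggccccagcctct
Dkk2: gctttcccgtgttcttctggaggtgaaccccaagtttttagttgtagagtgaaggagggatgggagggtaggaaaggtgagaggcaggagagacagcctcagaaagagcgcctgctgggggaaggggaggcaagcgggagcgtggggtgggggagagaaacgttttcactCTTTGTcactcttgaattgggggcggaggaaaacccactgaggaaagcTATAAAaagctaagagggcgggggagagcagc

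Most of the antagonists belonged to one side of the sort. With both batches in 1 model, 3 of the 10 were higher in Sox2-positive cells (Sfrp5, Sostdc1 and Dkk3) and the other 7 were lower, at an adjusted p under 0.05 in edgeR's quasi-likelihood test, which is what called means below. Over all 17190 genes tested 57.5% were called, 24.9% higher and 32.5% lower. The median log2 fold change, coded as Sox2-positive minus Sox2-negative, was -4.97 over the 10 antagonists and -0.12 over all genes tested. In batch A alone 3 were higher, 6 lower and Sfrp1 was not called, where 43.4% of 14296 genes were called, 19.3% higher and 24.2% lower. Batch B by itself had 2 higher, 7 lower and Dkk3 uncalled, where 54.7% of 15765 genes were called, 27.1% higher and 27.6% lower. The CPM ranges of the 2 populations did not overlap for 8 antagonists in batch A and 9 in batch B, against 28.1% and 38.1% of all genes tested. No call of an antagonist between the populations changed under any alternative setting tried. Here and in the figures, SE is the size of a log2 fold change divided by the square root of its test's F value. It is therefore not an estimate of error separate from the p-value. Where 1 population is near 0 counts it does not measure how loosely the fold is fixed.

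**Figure D1:**
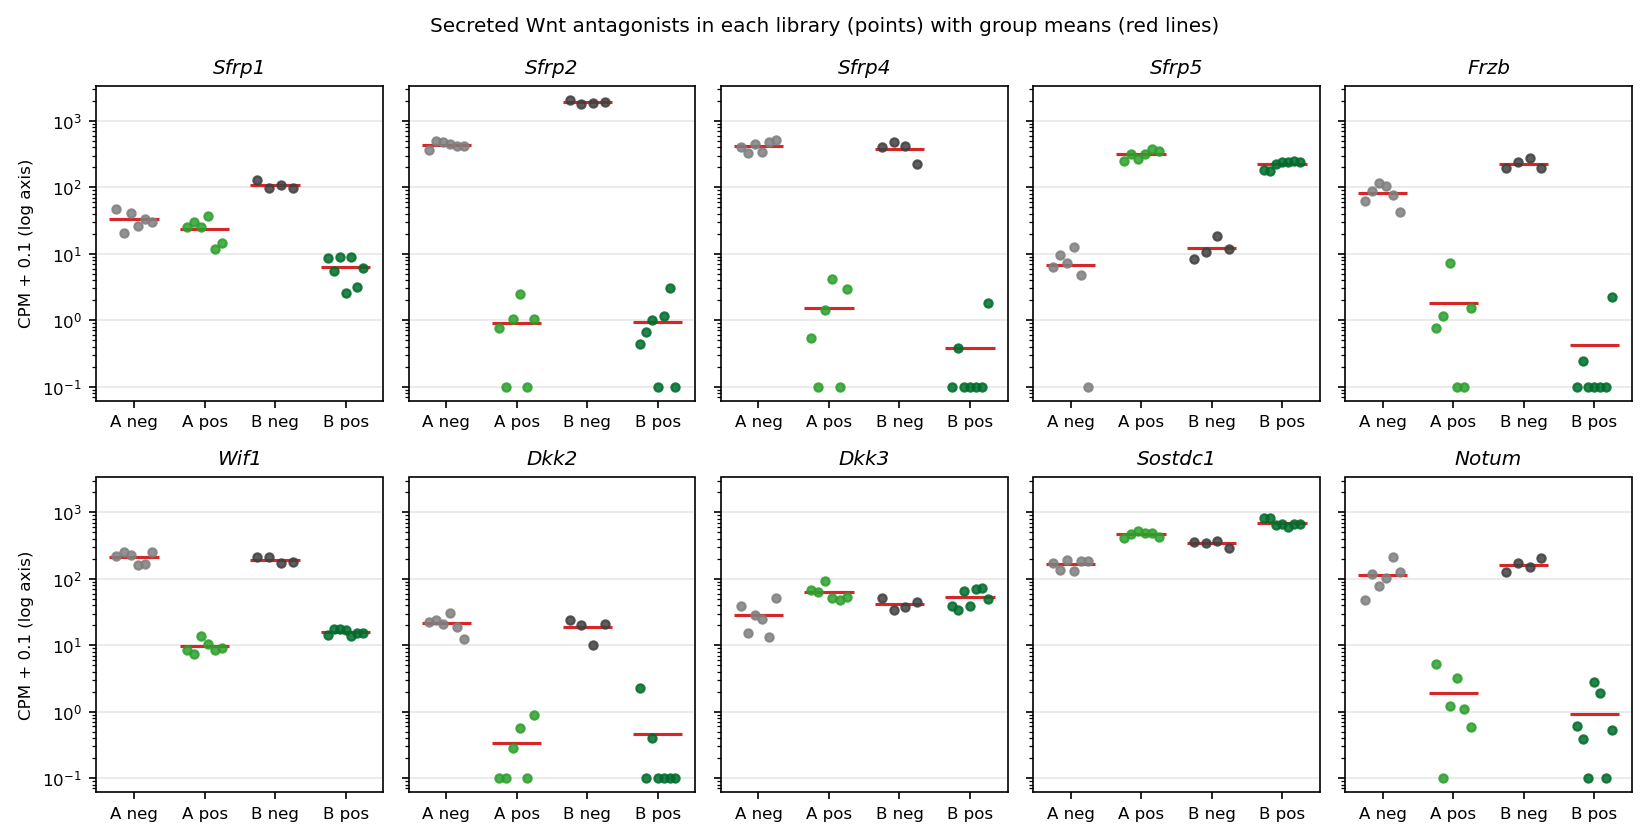
Each point is 1 library, plotted as CPM + 0.1 on a log axis, for the 10 antagonists in the 4 groups (A and B are the batches, neg and pos the Sox2-negative and Sox2-positive cells, with n = 6, 6, 4 and 7), and the red lines are group means. Sfrp5 and Sostdc1 are higher in every Sox2-positive library than in any Sox2-negative library of its batch, Sfrp2 reaches its highest level in batch B Sox2-negative cells, and Sfrp1 separates the populations in batch B while its ranges overlap in batch A.

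Among the frizzled-related proteins, Sfrp5 (ENSMUSG00000018822.7, chromosome 19, 42197971 to 42202252, minus strand) was the one called higher in Sox2-positive cells. Its level there was 248, 318 and 381 CPM at the lowest, median and highest library of batch A, and 179, 240 and 245 CPM in batch B. Sox2-negative cells held 0, 6.66 and 12.6 CPM at the same points in batch A, and 8.32, 10.7, 18.1 and 11.9 CPM in the 4 libraries of batch B. No Sox2-negative library came near any Sox2-positive one. The log2 fold change reached 5.56 (SE 0.43, edgeR adjusted p 4.16e-08) in batch A and 4.26 (SE 0.22, edgeR adjusted p 1.39e-10) in batch B, and the gap between those 2 values was not called (-1.36, SE 0.45, edgeR adjusted p 0.0688). That gap was called under 5 of 31 alternatives: DESeq2 (adjusted p 0.0147), no filter (edgeR adjusted p 0.00494), and without batch A Sox2-negative replicate 2, 4 or 6 (edgeR adjusted p 0.0498, 0.0226 and 0.0165).

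Sfrp2 (ENSMUSG00000027996.13, chromosome 3, 83766321 to 83774316, plus strand) stood at the opposite end. Sox2-negative libraries held 371, 436 and 492 CPM at the lowest, median and highest of batch A, and 2044, 1816, 1833 and 1929 CPM in the 4 libraries of batch B. In Sox2-positive cells the lowest, median and highest libraries were at 0, 0.802 and 2.37 CPM in batch A, and likewise at 0, 0.565 and 2.90 CPM in batch B. The median libraries lay near the level of 3 counts, and the highest held 10 and 16 counts. The Sox2-positive mean was 0.187% of the Sox2-negative mean in batch A and 0.0435% in batch B. Every Sox2-negative library lay far above every Sox2-positive one, with a log2 fold change of -9.07 (SE 0.39, edgeR adjusted p 3.28e-11) in batch A and -10.94 (SE 0.33, edgeR adjusted p 2.72e-13) in batch B. An antisense gene, Gm26771, overlaps Sfrp2, and as the strand setting of the counting is not given in the sources used here, reads of the pair cannot be told apart.

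Sfrp4 (ENSMUSG00000021319.7, chromosome 13, 19623104 to 19632994, plus strand) lay on the same side, and its Sox2-negative ranges overlapped between the batches. Its Sox2-negative levels were 331, 423 and 523 CPM (lowest, median and highest) in batch A and 402, 485, 422 and 226 CPM in batch B. In Sox2-positive cells it reached at most 4.03 CPM (batch A) and 1.73 CPM (batch B), and in batch B 5 of 7 libraries had no count. The populations did not overlap in either batch (log2 fold change -8.17, SE 0.50, edgeR adjusted p 2.86e-09 in batch A). In batch B it was -10.84 (SE 0.43, edgeR adjusted p 5.83e-12). Because the Sox2-positive means, 1.44 ± 1.67 CPM (SD, n = 6) and 0.287 ± 0.644 CPM (SD, n = 7), rest on at most 18 counts in a library, the size of these folds is loosely fixed.

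Frzb (ENSMUSG00000027004.3, chromosome 2, 80411970 to 80447625, minus strand), also known as Sfrp3, had Sox2-negative levels of 42.7, 82.5 and 118 CPM in batch A, with 197, 244, 276 and 195 CPM in the libraries of batch B. All 4 batch B libraries were above the highest of batch A. Among Sox2-positive libraries it was at 0, 0.870 and 7.15 CPM at the lowest, median and highest of batch A, and 5 of the 7 batch B libraries had no count. The 7.15 CPM came from replicate 3 alone, with 38 counts. Fitted log2 fold changes were -5.51 (SE 0.73, edgeR adjusted p 1.57e-05) in batch A and -10.08 (SE 0.45, edgeR adjusted p 2.86e-11) in batch B.

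Sfrp1 (ENSMUSG00000031548.7, chromosome 8, 23411502 to 23449632, plus strand) was set apart by the sort in batch B and not in batch A. In batch A its lowest, median and highest values were 20.5, 31.7 and 46.5 CPM in Sox2-negative libraries and 11.7, 25.3 and 36.5 CPM in Sox2-positive libraries, and the ranges overlapped. Its log2 fold change there stood at -0.46 (SE 0.33, edgeR adjusted p 0.268). In batch B the 4 Sox2-negative libraries held 129, 98.0, 108 and 96.7 CPM while Sox2-positive libraries held 2.42, 6.05 and 8.97 CPM (lowest, median and highest). These did not overlap, with a log2 fold change of -4.06 (SE 0.28, edgeR adjusted p 5.79e-09). From highest to lowest the group means were 108 ± 14.9 CPM (batch B Sox2-negative), 33.1 ± 9.67 CPM (batch A Sox2-negative), 23.9 ± 9.33 CPM (batch A Sox2-positive) and 6.17 ± 2.72 CPM (batch B Sox2-positive), and only the middle pair overlapped.

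Wif1, Wnt inhibitory factor 1 (ENSMUSG00000020218.11, chromosome 10, 121033960 to 121100650, plus strand), was higher in Sox2-negative cells but kept a measurable level in Sox2-positive ones. Sox2-negative libraries held 163, 227 and 257 CPM in batch A, with 211, 212, 175 and 182 CPM in batch B. In Sox2-positive cells every library was above the 3-count level, at 7.35, 8.77 and 13.7 CPM in batch A, with 13.6, 15.4 and 17.7 CPM in batch B. The Sox2-positive mean was 4.44% of the Sox2-negative mean in batch A and 8.06% in batch B. The populations stayed well apart, with log2 fold changes of -4.49 (SE 0.20, edgeR adjusted p 5.93e-11) and -3.55 (SE 0.13, edgeR adjusted p 3.09e-12).

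Notum (ENSMUSG00000042988.10, chromosome 11, 120653788 to 120661175, minus strand) varied widely among the Sox2-negative libraries of batch A, from 47.3 to 210 CPM with a median of 112 CPM. Its batch B Sox2-negative libraries held 126, 174, 150 and 207 CPM, within that range. Sox2-positive libraries ran from 0 to 5.09 CPM in batch A and from 0 to 2.67 CPM in batch B. No library of one population reached the other, giving a log2 fold change of -6.04 (SE 0.63, edgeR adjusted p 1.24e-06) in batch A and -7.82 (SE 0.47, edgeR adjusted p 9.08e-10) in batch B. Antisense genes named Notumos and Myadml2os overlap Notum, with the same limit on strand as for Sfrp2.

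Dkk2 (ENSMUSG00000028031.6, chromosome 3, 132085292 to 132180304, plus strand) had the lowest level per kilobase of exon of the 7 lower genes in Sox2-negative cells, 5.77 ± 1.61 (SD, n = 6) and 5.03 ± 1.62 (n = 4) CPM per kilobase in batches A and B. It held 12.4, 21.5 and 30.3 CPM in batch A Sox2-negative libraries and 23.8, 20.3, 9.95 and 20.6 CPM in those of batch B. In Sox2-positive cells 3 of 6 batch A libraries and 5 of 7 batch B libraries had no count, and the highest values were 0.797 and 2.19 CPM. The Sox2-negative levels of the batches overlapped and those of the populations did not (log2 fold change -6.26, SE 0.77, edgeR adjusted p 7.72e-06 in batch A). The value in batch B was -5.35 (SE 0.81, edgeR adjusted p 4.13e-05).

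Dkk3 (ENSMUSG00000030772.6, chromosome 7, 112116017 to 112159057, minus strand) showed the smallest difference of the 10 over both batches and had counts in every library. Its Sox2-negative levels were 13.03, 26.7 and 51.1 CPM in batch A, with 51.1, 33.5, 37.5 and 45.4 CPM in batch B. Sox2-positive levels were 47.9, 58.1 and 92.5 CPM in batch A, with 33.9, 49.7 and 73.3 CPM in batch B. The ranges overlapped in both batches. It was called higher in batch A (log2 fold change 1.14, SE 0.32, edgeR adjusted p 0.00937) and not in batch B (0.41, SE 0.23, edgeR adjusted p 0.146), and the difference between those values was not called either (-0.80, SE 0.41, edgeR adjusted p 0.28).

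Sostdc1 (ENSMUSG00000036169.6, chromosome 12, 36314139 to 36318452, plus strand) was abundant on both sides of the sort and higher in Sox2-positive cells. Sox2-positive libraries held 418, 476 and 520 CPM in batch A, with 610, 665 and 829.3 CPM in batch B. The Sox2-negative levels were 130, 178 and 190 CPM in batch A, with 354, 352, 374 and 295 CPM in batch B. The 4 groups did not overlap one another, in the order batch B Sox2-positive, batch A Sox2-positive, batch B Sox2-negative and batch A Sox2-negative. The log2 fold change between populations was 1.496 (SE 0.12, edgeR adjusted p 5.26e-08) in batch A and 1.10 (SE 0.11, edgeR adjusted p 6.14e-07) in batch B.

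**Figure D2:**
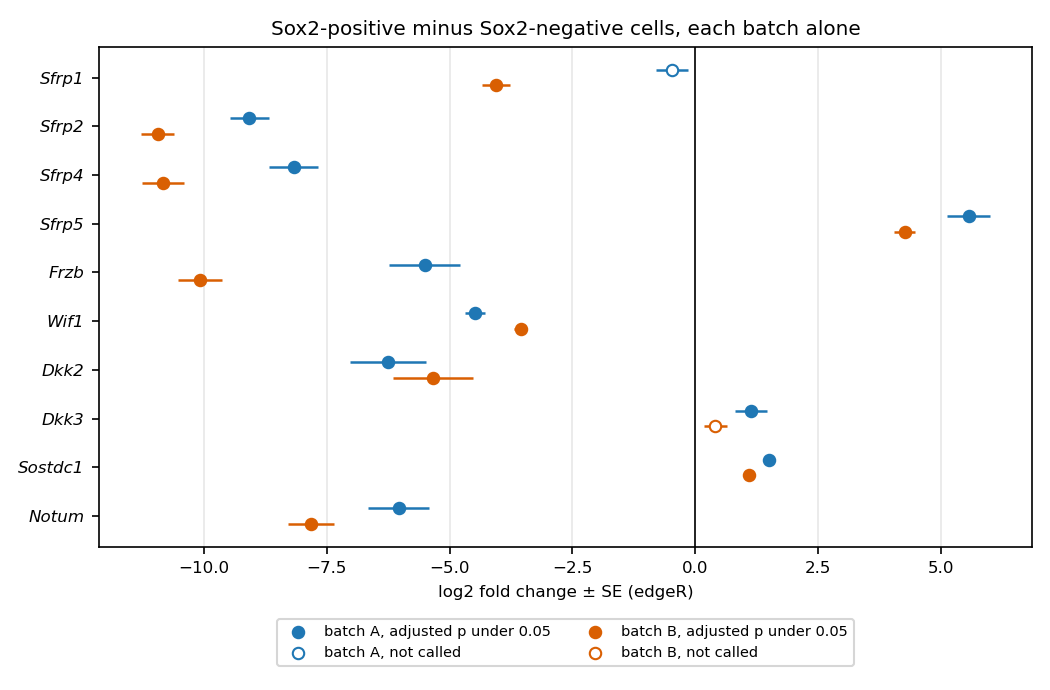
Log2 fold change of Sox2-positive minus Sox2-negative cells (points, with bars of 1 SE) for each antagonist, fitted in batch A (12 libraries) and batch B (11 libraries) separately, with open circles for adjusted p of 0.05 or more. Sfrp5, Sostdc1 and Dkk3 lie to the right of 0 and the others to the left, and the open circles are Sfrp1 in batch A and Dkk3 in batch B.

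Per unit of transcript length the make-up of the antagonist mixture turned over between the populations. CPM per kilobase of annotated exon was summed over the 10 genes in each library. The summed level was 585 ± 45.1 (SD, n = 6) and 459 ± 33.9 (n = 6) CPM per kilobase in Sox2-negative and Sox2-positive cells of batch A, and 1437 ± 47.6 (n = 4) and 537 ± 31.3 (n = 7) in those of batch B. Sfrp5 and Sostdc1 together took 93.4% ± 1.70 (batch A) and 95.4% ± 1.10 (batch B) of it in Sox2-positive cells, against 16.6% ± 1.81 and 13.9% ± 1.23 in Sox2-negative cells. Sfrp2, Sfrp4, Frzb, Dkk2, Wif1 and Notum together took 80.6% ± 2.63 and 83.6% ± 1.17 in Sox2-negative cells and 1.32% ± 0.475 and 1.39% ± 0.124 in Sox2-positive cells.

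The leading genes within each mixture also differed between batches. Sfrp2 was the largest Sox2-negative component in both, at 34.9% ± 3.36 of the summed level in batch A (SD, n = 6) and 61.6% ± 2.89 in batch B (n = 4). Sfrp4 took 17.1% ± 2.40 and 6.36% ± 1.78, Wif1 15.2% ± 2.79 and 5.58% ± 0.456, and Sostdc1 15.97% ± 2.05 and 13.4% ± 1.14 of the same sums. In Sox2-positive cells Sostdc1 was the largest component, at 57.3% ± 2.85 in batch A and 73.3% ± 4.79 in batch B, followed by Sfrp5 at 36.04% ± 4.404 and 22.1% ± 3.90. As shares of 1 sum these move against each other by construction.

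**Figure D3:**
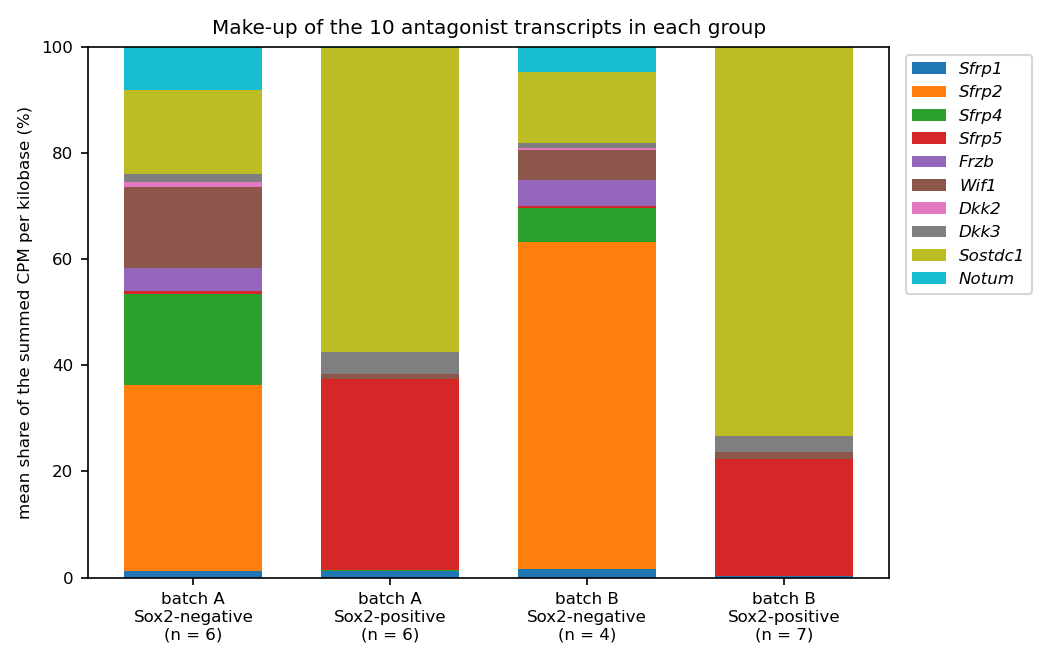
Stacked bars give the mean share (%) that each antagonist takes of the summed CPM per kilobase in the 4 groups, from 0 to 100. Sfrp2 makes up 34.9% and 61.6% of the Sox2-negative bars of batches A and B, while Sostdc1 and Sfrp5 together fill 93.4% and 95.4% of the Sox2-positive bars.

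The batches were compared within each population. In Sox2-negative cells Sfrp1, Sfrp2 and Sostdc1 were higher in batch B and none of the 10 was called lower, where 5.85% of all genes were called higher and 5.35% lower, 11.2% together. Sfrp2 went from a mean of 439 ± 45.0 CPM (SD, n = 6) to 1906 ± 104.9 CPM (SD, n = 4), a log2 difference of 2.12 (SE 0.27, edgeR adjusted p 4.76e-06). The log2 difference was 1.71 (SE 0.33, edgeR adjusted p 0.000832) for Sfrp1 and 1.04 (SE 0.12, edgeR adjusted p 7.28e-07) for Sostdc1. Frzb, at 81.9 ± 27.5 and 228 ± 39.0 CPM, was not called (1.48, SE 0.49, edgeR adjusted p 0.0523), but it was under 7 of 30 alternatives, among them limma-voom (adjusted p 0.000147) and no filter (edgeR adjusted p 0.00237). The other 6, Sfrp4, Sfrp5, Dkk2, Dkk3, Wif1 and Notum, had log2 differences from -0.20 to 0.87 and were not called. The marker sums of the mixture moved too: erythroid markers went from 1097 ± 68.5 in batch A to 56659 ± 3906 CPM in batch B, with 5 of 7 called higher. Leukocyte markers went from 3642 ± 144 to 728 ± 46.9 CPM, with 7 of 10 called lower, and endothelial markers from 1304 ± 115 to 346 ± 67.5 CPM, with 8 of 8 called lower. Of the 12 mesenchymal markers 1 was called higher and none lower, with a median log2 difference of 0.11. Epithelial markers went from 214 ± 38.3 to 392 ± 24.5 CPM, with 4 of 10 called higher and a median log2 difference of 1.07, close to the 1.04 of Sostdc1. The part of these shifts in the antagonist levels was not tested.

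In Sox2-positive cells 3 antagonists were lower in batch B (Sfrp1, Sfrp4 and Frzb) and 2 were higher (Wif1 and Sostdc1), against 5.54% and 4.85% of all genes, 10.4% together. Sfrp1 fell by 1.95 on the log2 scale (SE 0.30, edgeR adjusted p 5.49e-05), from 23.9 ± 9.33 CPM (SD, n = 6) to 6.17 ± 2.72 CPM (n = 7). Wif1 rose by 0.72 (SE 0.16, edgeR adjusted p 0.00277), from 9.58 ± 2.27 to 15.7 ± 1.59 CPM, a call that was lost under limma-voom (adjusted p 0.0615). Sostdc1 rose by 0.59 (SE 0.10, edgeR adjusted p 0.000242), from 468 ± 40.7 to 703 ± 87.3 CPM. The Sfrp4 and Frzb calls rest on few counts. For Sfrp4 the log2 difference was -2.84 (SE 0.87, edgeR adjusted p 0.0334), and without batch A Sox2-positive replicate 4 or replicate 6 the edgeR adjusted p was 0.114 and 0.116. For Frzb it was -3.12 (SE 0.94, edgeR adjusted p 0.0303), and without batch A Sox2-positive replicate 3 it was -1.78 with an edgeR adjusted p of 0.263. Each of these 2 calls was lost under 10 of 30 alternatives, whereas those of Sfrp1 and Sostdc1 held under all 30.

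Markers of other cells also differed between the Sox2-positive libraries of the batches. Glial and neural crest markers summed to 1008 ± 106 CPM (SD, n = 6) in those of batch A but 70.6 ± 13.4 CPM (SD, n = 7) in those of batch B, with 7 of 7 called lower. Ameloblast markers, which are enamel matrix genes of the maturing epithelium, summed to 324 ± 22.9 and 8.48 ± 1.27 CPM, with 4 of the 4 tested called lower. Mesenchymal markers summed to 1618 ± 223 and 675 ± 35.7 CPM, with 5 of 12 called lower, 7 not called and a median log2 difference of -0.34. Their means did not move as one. Col1a1 went from 424 to 36.1 CPM and Col3a1 from 387 to 7.01 CPM, while Pdgfra went from 29.3 to 42.3 CPM and Dcn from 4.58 to 7.42 CPM. These marker sums moved in the same direction as Sfrp1, Sfrp4 and Frzb. Perivascular and smooth muscle markers went the other way, from 275 ± 13.6 to 539 ± 10.2 CPM with 3 of the 5 tested called higher and 1 lower, and so did epithelial markers, from 3971 ± 131 to 5399 ± 893.6 CPM with 2 of 10 called higher, as Wif1 and Sostdc1 did. The match of epithelial markers with Sostdc1 held for group means and not within batch B. There, Sox2-positive libraries 1 and 2 held epithelial sums of 4211.9 and 3997.0 CPM, against 5774.6 to 6129.95 CPM in libraries 3 to 7. Sostdc1 ran the other way, averaging 827 CPM in libraries 1 and 2 and 653 CPM in the rest. The part of any of these markers in the antagonist differences was not tested.

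**Figure D4:**
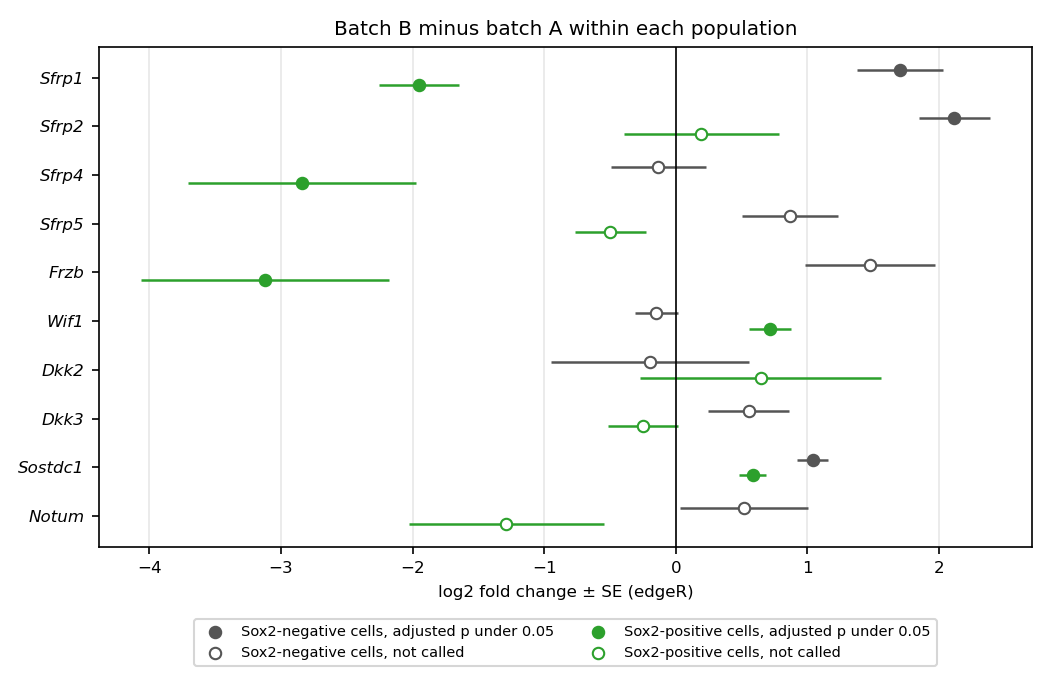
Log2 difference of batch B minus batch A (points, with bars of 1 SE) for each antagonist within Sox2-negative cells (10 libraries) and within Sox2-positive cells (13 libraries), with filled points for adjusted p under 0.05. Sfrp1 lies at 1.71 in Sox2-negative and -1.95 in Sox2-positive cells, while Sostdc1 lies above 0 in both.

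The population difference itself was then compared between batches by an interaction term, coded as batch B minus batch A, which was called for 3 of the 10 antagonists, 2 below 0 and 1 above, and for 7.04% of all genes, 4.22% below and 2.82% above. For Sfrp1 the term was -3.66 (SE 0.45, edgeR adjusted p 3.96e-06) and it was called under all 31 alternatives. For Frzb it was -4.60 (SE 1.05, edgeR adjusted p 0.00635), a larger gap between the populations in batch B, and without the batch B libraries numbered 1 and 2 the edgeR adjusted p was 0.0894. For Wif1 it was 0.87 (SE 0.23, edgeR adjusted p 0.0185), a smaller gap in batch B. That call was lost without the same libraries (edgeR adjusted p 0.0752), with no filter (0.064) and under limma-voom (adjusted p 0.0916). The other 7 terms had edgeR adjusted p values from 0.0688 for Sfrp5 to 0.771 for Dkk2. Besides Sfrp5, 3 of them were called under some of the 31 alternatives: Sfrp2 under 5, Sfrp4 under 4 and Sostdc1 under 1.

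Libraries numbered 1 and 2 of batch B had a higher rank correlation with each other across genes than the median of the other pairs in their group, a grouping found in the values and absent from the labels. Among Sox2-positive libraries the median rank correlation was 0.982 between those 2, 0.963 among the rest and 0.961 between the sets. Among Sox2-negative libraries it was 0.948, 0.902 and 0.911, so there the sets were no further from each other than the rest were among themselves. In the Sox2-positive libraries Sfrp5 averaged 181 CPM in them and 240 CPM in the other 5, Sostdc1 827 and 653 CPM, and Dkk3 36.7 and 59.5 CPM. Wif1 averaged 15.8 and 15.6 CPM. With them left out, all 10 antagonists were called over both batches, where 9431 of 18629 genes were, and 9 in batch B alone, where 6919 of 16264 genes were. Depth differed as well. Sox2-negative libraries 1 and 2 of batch B totalled 9.54 and 7.70 M counts, and the others 6.61 and 6.40 M. Sox2-positive libraries 1 and 2 totalled 5.98 and 7.11 M, and the others from 2.31 to 6.46 M. The part of depth in the rank correlations was not tested.

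The Sox2-positive residue of the Sox2-negative antagonists was set beside that of cell type markers. As a percentage of the Sox2-negative mean, Sfrp2, Sfrp4, Frzb, Dkk2 and Notum stood between 0.187% and 2.10% in batch A and between 0.0435% and 1.91% in batch B. Wif1 was higher than these 5 in both batches, and Sfrp1, at 72.3% in batch A and 5.72% in batch B, was the only one of the 7 lower genes above 10% in either. The mesenchymal marker sum was at 12.3% and 5.07%, with Twist1 and Twist2 at 0 in every Sox2-positive library, and the leukocyte marker sum at 0.229% and 1.12%. The odontoblast and bone marker sum was at 3.67% and 1.62%. Other lists were more spread: ameloblast markers at 37.4% and 1.29%, and perivascular and smooth muscle markers at 32.3% and 109%. Endothelial markers were at 2.20% and 8.52%, and erythroid markers at 0.405% and 0.00992%. Much of the mesenchymal sum was Col1a2, at 565 and 546 CPM in Sox2-positive cells, within sums of 1618 and 675 CPM. In batch A Col1a1 (424 CPM) and Col3a1 (387 CPM) added to it. A sum led by few genes is unlike the residue of a single antagonist, and single mesenchymal markers varied. Msx1 averaged 344 and 414 CPM in Sox2-negative cells of batches A and B, against 1.90 and 0.587 CPM in Sox2-positive cells. Pdgfra averaged 130 and 325 CPM against 29.3 and 42.3 CPM.

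Genes nearest to each antagonist in pattern, up to 3 of them, were found by Pearson's r of log2 CPM over the 23 libraries, among 11088 genes of mean at least 10 CPM. All libraries share the same 4 groups, so r mostly reads the group levels, and r after removing the group means is given second. Sfrp5 was nearest to Mlf2 (0.97, and 0.80 within groups), Serinc2 (0.97 and 0.84) and Cers4 (0.97 and 0.87). The second r pools the libraries of all 4 groups, so it does not read any 1 group. For Sfrp5 it takes in batch A Sox2-negative replicate 6, with 0 counts against 22 to 48 in the rest of that group. The weight of that library in r was not tested. Sfrp2 was nearest to Smpd3 (0.99 and 0.40) and Twist1 (0.99 and -0.01). Wif1 was nearest to Timp1, Prrx2 and Gchfr, with r of 0.98 to 0.99 and within-group r of 0.06 to 0.51. Sostdc1 was nearest to Lgi2, Eppk1 and Mfap2, with r of 0.95 to 0.97 and within-group r of 0.34 to 0.54. For Sfrp4 the near genes included Msx1 and Bglap2, for Frzb they were Mmp13, Gxylt2 and Hand2, for Dkk2 Aplnr, Bglap2 and Mmp13, and for Notum Bglap, Gxylt2 and Foxf1, all with r of 0.96 to 0.98. Their within-group r ran from 0.28 to 0.52, except for Dkk2 and Aplnr at 0.72. The first r was lower for Sfrp1 (Mat2a, Sp7 and Ambn, 0.89 to 0.93, within groups 0.21 to 0.49). It was lowest for Dkk3 (Sugp1, Cpxm2 and Abhd16a, 0.85 to 0.88). Within groups, however, the Dkk3 neighbours were at 0.67 to 0.74, which elsewhere only those of Sfrp5 and Aplnr for Dkk2 reached.

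Other genes of the pathway were read from lists chosen with earlier results of these data known, and their counts stand beside 57.5% of all genes called in the same comparison. Of 15 other Wnt antagonists 10 were tested over both batches, with 3 higher, 6 lower and 1 not called. Dkk1, another Dickkopf protein that binds the co-receptors, averaged 51.4 ± 16.2 and 90.8 ± 14.1 CPM in Sox2-negative cells of batches A and B, and had no count in batch A Sox2-positive libraries and 0.505 ± 0.546 CPM in those of batch B (edgeR adjusted p 8.37e-15). Shisa2, which holds Frizzled inside the cell, was higher in Sox2-positive cells (log2 fold change 1.66, SE 0.33, edgeR adjusted p 9.51e-05), as were Tpbg (0.53) and the glypican Gpc3 (0.51), while Shisa3 was lower (-5.88). The batches differed for Shisa2. It averaged 28.4 and 233 CPM in Sox2-negative and Sox2-positive cells of batch A, and 135 and 164 CPM in those of batch B. Draxin (-3.29) and Apcdd1 (-1.89) were lower, and without the batch B libraries numbered 1 and 2 their edgeR adjusted p values were 0.0543 and 0.0939.

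Of 19 Wnt ligands 10 were tested, with 1 higher, 4 lower and 5 not called. Wnt4 was higher in Sox2-positive cells (log2 fold change 1.62, SE 0.24, edgeR adjusted p 1.91e-06), and Wnt5a (-3.83), Wnt9a (-3.72), Wnt11 (-2.32) and Wnt10a (-1.46) were lower. Of the 18 receptors 6 were higher, led by Kremen2 (4.63), a receptor for Dickkopf proteins, and Fzd3 (1.94), Fzd5 (1.498) and Fzd1 (1.43), and 9 were lower, led by Fzd10 (-5.48), Fzd4 (-2.84), Fzd8 (-1.10) and Ryk (-0.80). Among 9 genes of Wnt secretion and R-spondin signalling 3 were higher and 5 lower. The R-spondin receptors Lgr5 (4.68) and Lgr4 (0.95) and the Wnt carrier Wls (0.80) were higher, and the R-spondins Rspo4 (-8.50), Rspo3 (-7.57) and Rspo2 (-6.09) and the receptor Lgr6 (-5.51) were lower. Shisa3, Fzd10, Rspo2, Rspo3 and Rspo4 had no count in one of the Sox2-positive groups, so the sizes of their folds rest on the fit's prior count. Of 9 tested feedback and target genes 3 were higher, namely Myc (1.96), Rnf43 (1.03) and Znrf3 (0.84). Another 5 were lower, among them Axin2 (-4.33), Lef1 (-4.28), Tcf7 (-2.32) and Nkd1 (-1.36). In batch A alone 1 was higher and 3 lower, with a median log2 fold change of 0.35, where 43.4% of all genes were called. In batch B 2 were higher and 6 lower, with a median of -2.60, where 54.7% were called. The interaction term was below 0 and called for 4 of the 9, against 4.22% of all genes. Nkd1 averaged 31.5 and 27.5 CPM in the Sox2-negative and Sox2-positive cells of batch A, and 34.0 and 5.42 CPM in batch B.

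**Figure D5:**
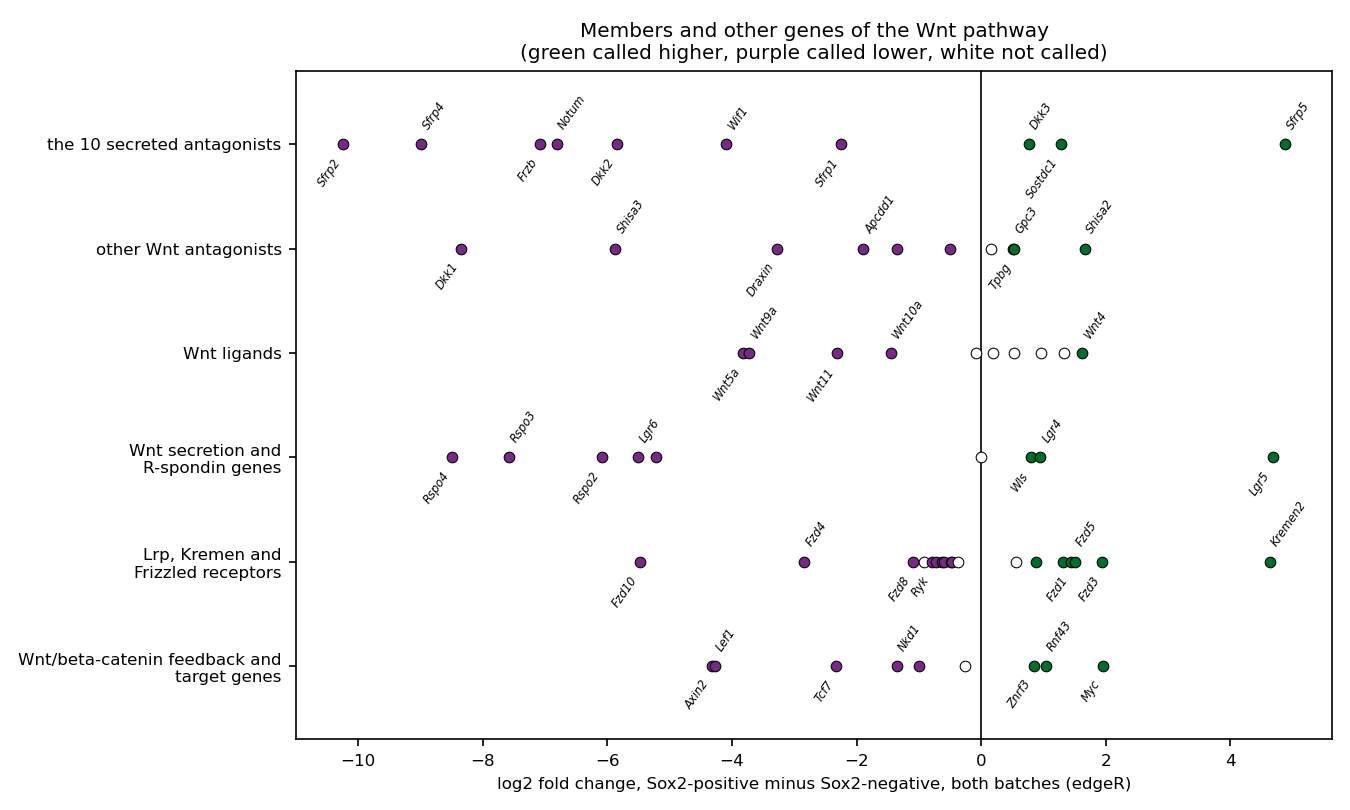
Each point is a gene's log2 fold change of Sox2-positive minus Sox2-negative cells over both batches, by list, for the genes tested (green higher, purple lower, white not called), with names for the antagonists and the leading genes of each list. The 10 antagonists run from Sfrp2 at -10.24 to Sfrp5, and all but Sfrp5, Sostdc1 and Dkk3 lie left of 0.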

How the data were processed

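RNA sequencing of 23 libraries in 4 groups was analysed, grouped by the labels. The authors deposited estimated counts per gene without depth scaling; FastQC, Trimmomatic, Salmon and the mm10 build are named per the submitters' processing notes, and the gene annotation is not given in the sources used here. Counts were rounded to whole numbers. Of the identifiers, 54094 (99.5%) matched GENCODE M21 without their version, which gave symbols, positions on GRCm38 and exon lengths. Columns left unused numbered 0.

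Tests used edgeR 4.0.16 in R 4.3.3: TMM scaling, filterByExpr at a minimum count of 10, quasi-likelihood F tests, two-sided, adjusted by Benjamini-Hochberg over all genes tested. Batch was a term over both batches; a model of the 4 group means gave the interaction and the batch differences. The fits were also run on simulated counts in which few genes changed, unlike these data, so that run cannot judge the scaling or the spread between libraries. Alternatives were DESeq2 1.42.0, limma-voom (limma 3.58.1) with quality weights, other scalings, other filters, a replicate block, and leaving out libraries; scaling of group means and exon length by the longest transcript were added after seeing the data. A floor of 3 counts covers counting error only.

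The antagonists and all gene lists were chosen with earlier results of these data known. All 10 are named; from each pathway list up to 4 highest and 4 lowest called genes of mean at least 1 CPM are named, and the 3 nearest genes per antagonist by Pearson's r (prior count 2), of which some are not reported here. Same-numbered libraries of the populations were not treated as pairs: over 10 pairs their deviations correlated between -0.02 and 0.06.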

Additional observations from a re-analysis of the deposited data

Results flagged for a closer look

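Of 40 groups tested for a library far from the rest, 5 held one, all at the high end and all in Sox2-positive cells, where chance gives about 1 in 20 groups of evenly spread values. That rate need not hold here, since 3 of the 5 groups (Frzb, Sfrp4 and Dkk2 in batch B) had 5 of 7 libraries at 0. Frzb was at 7.15 CPM (38 counts) in batch A Sox2-positive replicate 3 and at 2.16 CPM (5 counts) in batch B Sox2-positive replicate 7. Sfrp4 was at 1.73 CPM (4 counts) in that same batch B library. Sfrp2 was at 2.90 CPM (16 counts) in batch B Sox2-positive replicate 6, and Dkk2 at 2.19 CPM (13 counts) in batch B Sox2-positive replicate 1.

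The difference between the populations itself differed between batches by the interaction term in edgeR for 3 antagonists: Sfrp1 (-3.66, adjusted p 3.96e-06), Frzb (-4.60, adjusted p 0.00635) and Wif1 (0.87, adjusted p 0.0185). Wif1 was lower in Sox2-positive cells in both batches, and Frzb likewise. Sfrp1 was called lower in batch B and was not called in batch A.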

How the results depend on the processing

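Between the populations, the calls of the 10 antagonists were the same under all 31 alternatives over both batches and under all 20 in each batch alone. For the interaction, 5 antagonists were called by DESeq2 (1675 of 17190 genes) and 5 with no filter (1350 of 37531 genes), against 3 (1210 of 17190 genes). Without the batch B libraries numbered 1 and 2, 1 was called, with 481 genes against 1210. Leaving out 1 library at a time gave 3 to 5. Between batches in Sox2-negative cells 5 were called with no filter (1867 of 37531 genes), against 3, and 754 genes against 1924 without those libraries. In Sox2-positive cells limma-voom called 3 antagonists and 3313 genes, against 5 and 1785; without those libraries the numbers were 3 and 1159, and leaving out 1 library gave 3 to 5. The cause of these changes was not tested, and leaving libraries out also makes the groups smaller.

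With the replicate block, which gives same-numbered libraries a shared term although only 1 library correlated best with its own number, 557 genes had an interaction, and the population difference was called for 8795 genes over both batches, 5829 in batch A and 6668 in batch B. Of the antagonists 10, 9 and 9 were called as before, and for Wif1 the interaction had an adjusted p of 0.0901 in edgeR.

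Signs turned only where nothing was called. For Dkk2 the interaction was -0.14 under limma-voom and -0.81 without the batch B libraries 1 and 2, and leaving out 1 library gave -1.39 (batch B Sox2-positive replicate 1) to 1.77. Its batch difference in Sox2-positive cells was -0.24 and -1.29 under those settings and -1.58 (the same replicate) to 1.55. Leaving out 1 library moved the Sox2-positive batch difference of Sfrp2 from -0.57 (without batch B replicate 6) to 0.75, with -0.07 and -0.04 without batch A replicates 2 and 5. In Sox2-negative cells it moved Dkk2 from -0.318 to 0.0273 (without batch B replicate 3) and Sfrp4 from -0.251 to 0.0687 (without batch B replicate 4).

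Total-count scaling moved the split of higher and lower calls between batches to 661 and 1388 from 1005 and 919 genes in Sox2-negative cells, and to 666 and 1214 from 833 and 952 in Sox2-positive cells. It also moved the batch B Sox2-negative mean of Sfrp2 to 1719 CPM and of Wif1 to 175 CPM. Depth limits Sfrp2, Sfrp4, Frzb, Dkk2 and Notum in Sox2-positive cells, where many libraries hold few counts or none.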
